A study of Homo sapiens with 4 samples.

Results

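Binding regions of the transcription factor ONECUT2 on human chromosome 12 were taken from 3 deposited peak lists. Members were all entries whose chromosome field reads 12. They numbered 1172 of 14431 peaks in the list of replicate 1, 1220 of 11990 in the list of replicate 2 and 419 of 4297 in the list made with the irreproducible discovery rate (IDR) procedure, or 2811 of 30718 entries in all. The lists come from chromatin immunoprecipitation with sequencing (ChIP-seq) in 22Rv1, an established human prostate carcinoma line derived from a xenograft that relapsed after castration. The labels list 2 libraries pulled down with a rabbit antibody to ONECUT2 and 2 of input DNA, the only control they name. Cells of all 4 were cross-linked with 1% formaldehyde, and no treatment or genetic change is named for any. Whether the pulled-down samples were grown apart is not stated, so their spread may be technical.

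ONECUT2 belongs to a small family of factors that contact DNA with a CUT domain and a homeodomain. In castration-resistant prostate cancer it is known for restraining the androgen receptor programme and for favouring neuroendocrine features. In ChIP-seq, fragments that carry the factor pile up over its sites, and a peak is a place where the pile exceeds a background taken from input. As background on the chromosome, the long arm carries the HOXC cluster, the type II keratin genes, CDK4 and MDM2. Positions below are in hg19 and counted from 1. No annotation of that build was used here, so no gene was assigned to a region and no sequence is shown.

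Each peak has a fold enrichment given by the authors, the ratio of the pileup at its summit to the local background. The number of ChIP fragments at the summit and the background, in fragments, were recovered from that fold and its p-value. All 1172 and all 1220 peaks gave a whole number of fragments, from 14 to 341 in replicate 1 and from 16 to 332 in replicate 2. The smallest background that a list allows was 4.37 fragments in replicate 1 and 4.87 in replicate 2. Backgrounds of overlapping peaks on chromosome 12 had a rank correlation of 0.946 between the 2 lists. Dividing the smallest value of replicate 2 by that of replicate 1 gave 1.11. On chromosome 12, 3 pairs above the smallest value had summits at the same base, and all 3 kept to this quotient. In those pairs the fold values therefore share a denominator up to scale. Whether both lists used the same input reads throughout was not tested, so the remaining fold values may share one too. Tests below compare each of the 22 autosomes with the other 21 and are adjusted over the 22 by the Benjamini-Hochberg method. They treat peaks as single observations, although neighbouring peaks are not independent and no test here measures spread over cultures.

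Chromosome 12 was among the most densely marked autosomes in all 3 lists. It held 8.94 ± 0.254 peaks per Mb (SD, n = 2 replicate lists). In replicate 1 it held 1.87 times the density of the other autosomes (95% interval 1.76 to 1.99, adjusted exact p = 1.35e-78) and ranked 2 of 22. In replicate 2 the ratio was 2.39 (interval 2.25 to 2.54, adjusted exact p = 2.76e-145), the highest of the 22. In the IDR list it was 2.24 (interval 2.02 to 2.48, adjusted exact p = 7.25e-44), second to chromosome 19. Nearly every autosome differed from the rest in this test, with 20 of 22 (90.9%) past the threshold in each replicate list and 19 of 22 (86.4%) in the IDR list. Most of these were lower, and 6, 5 and 5 autosomes were higher in replicate 1, replicate 2 and the IDR list. The density was therefore high in rank and size, while passing the test was common. When peaks closer than 50 kb were counted once, the ratios were 1.60, 1.89 and 2.06.

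**Figure D1:**
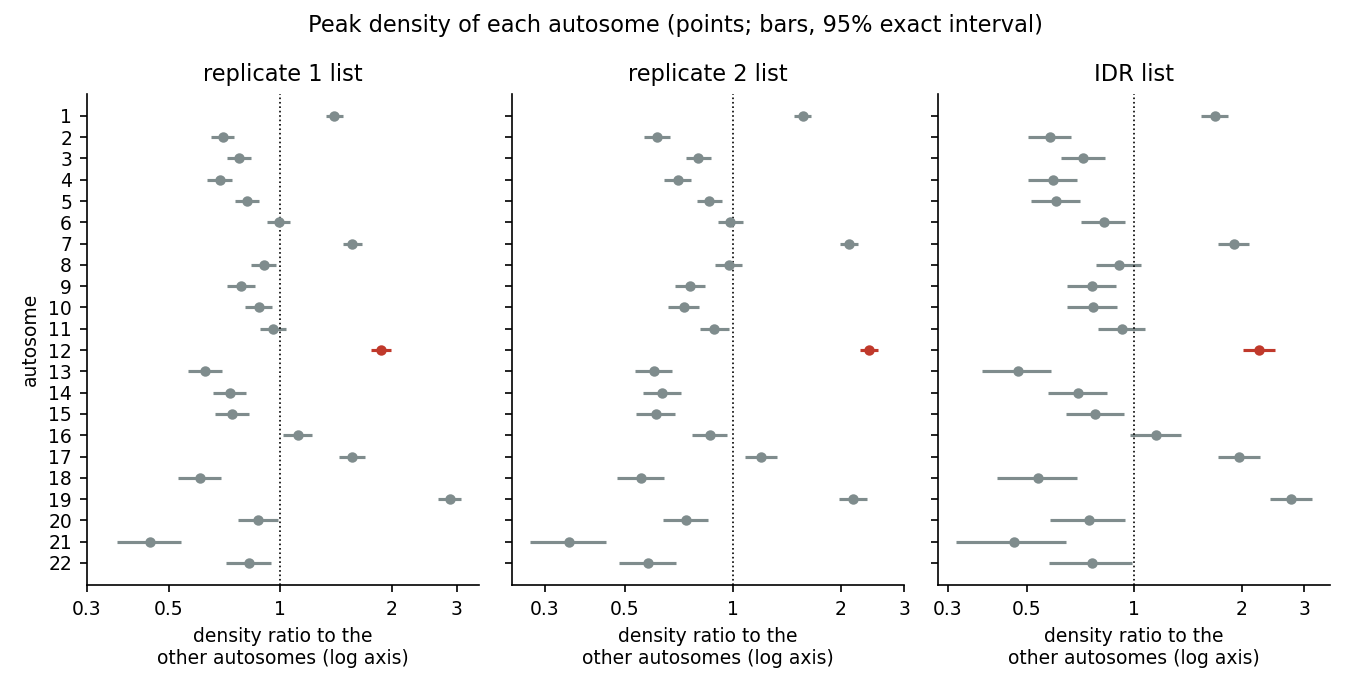
Density of peaks on each autosome (vertical axis) as a ratio to the other 21 autosomes (horizontal log axis) in the 3 lists, with exact 95% intervals as bars. Chromosome 12, in red, lies at 1.87, 2.39 and 2.24, and chromosome 19 lies above it in replicate 1 and in the IDR list.

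Replicate 2 had more peaks than replicate 1 on chromosome 12, although its whole list is shorter. There were 1.04 replicate 2 peaks for each replicate 1 peak, against 0.814 on the other autosomes (odds ratio 1.28, interval 1.17 to 1.39, adjusted exact p = 1.34e-07). Chromosomes 7 and 12 were the 2 of 22 autosomes where this number exceeded 1, and 10 of 22 (45.5%) differed from the rest. This comparison was chosen after the counts were seen.

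Density was above that of the other autosomes in every class of fold enrichment. Below a fold enrichment of 3, chromosome 12 had 1.77 times the density of the other autosomes in replicate 1 (interval 1.60 to 1.96) and 2.20 times in replicate 2 (interval 1.96 to 2.46). From 3 to 4 the ratios were the highest of the fold classes, at 2.102 (interval 1.91 to 2.31) and 2.69 (interval 2.46 to 2.93). From 4 to 6 they were 1.75 (interval 1.498 to 2.04) and 2.38 (interval 2.06 to 2.74). At 6 or more, where 71 and 56 peaks were left, both replicates gave 1.51 (intervals 1.17 to 1.93 and 1.13 to 1.98). In replicate 2 that interval lay below those of the classes from 3 to 4 and from 4 to 6, while in replicate 1 it overlapped the intervals of all other classes. No test compared the classes with each other.

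The peaks of chromosome 12 lay more often than those of the other autosomes at both ends of the background scale, and so did those of chromosome 7. Peaks at the smallest background of the list made up 266 of 1172 (22.7%, interval 20.3% to 25.2%) in replicate 1, against 16.3% of autosomal peaks. In replicate 2 they were 412 of 1220 (33.8%, interval 31.1% to 36.5%), against 27.7%. Set against the other autosomes, replicate 1 gave an odds ratio of 1.57 (interval 1.36 to 1.82, adjusted exact p = 2.21e-08). In replicate 2 it was 1.38 (interval 1.21 to 1.57, adjusted exact p = 2.54e-06). Such differences were common, with 15 of 22 autosomes (68.2%) past the threshold in replicate 1 and 13 of 22 (59.1%) in replicate 2. At the other end, a background of 20 fragments or more lay under 203 peaks (17.3%) in replicate 1, against 6.12% of autosomal peaks, and under 172 (14.1%) in replicate 2, against 6.68%. Against the other autosomes this gave an odds ratio of 3.90 in replicate 1 (interval 3.27 to 4.63, adjusted exact p = 1.36e-44). In replicate 2 it was 2.66 (interval 2.21 to 3.19, adjusted exact p = 1.95e-21). The border at 20 was set after the values were seen, and 19 of 22 autosomes (86.4%) and 14 of 22 (63.6%) differed by it, with 3 of them higher in each replicate. Chromosome 7 had 24.7% and 36.4% of its peaks at the smallest background in replicates 1 and 2, and 18.3% and 12.3% at 20 or more.

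Per Mb, high-background peaks gave the widest gap between chromosome 12 and the rest. Their density was 6.36 times that of the other autosomes in replicate 1 (interval 5.41 to 7.46) and 5.81 times in replicate 2, each the highest of the 22. Peaks at the smallest background reached 2.71 (interval 2.37 to 3.08) and 2.99 (interval 2.69 to 3.32), also the highest. By density, 3 and 4 autosomes passed as higher at 20 or more in replicates 1 and 2, and 5 and 4 at the smallest background. Chromosome 7, whose shares at both ends were close to these, is not set beside chromosome 12 per Mb here. The ranks are therefore not shown to be particular to chromosome 12. In the middle, from 10 to 20 fragments, chromosome 12 came nearer to the other autosomes, at 1.25 (interval 1.12 to 1.39) and 1.31. The density ratio thus differed between background classes without following the background in 1 direction. The part of the background in the density was not tested. Copy number was not analysed here.

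**Figure D2:**
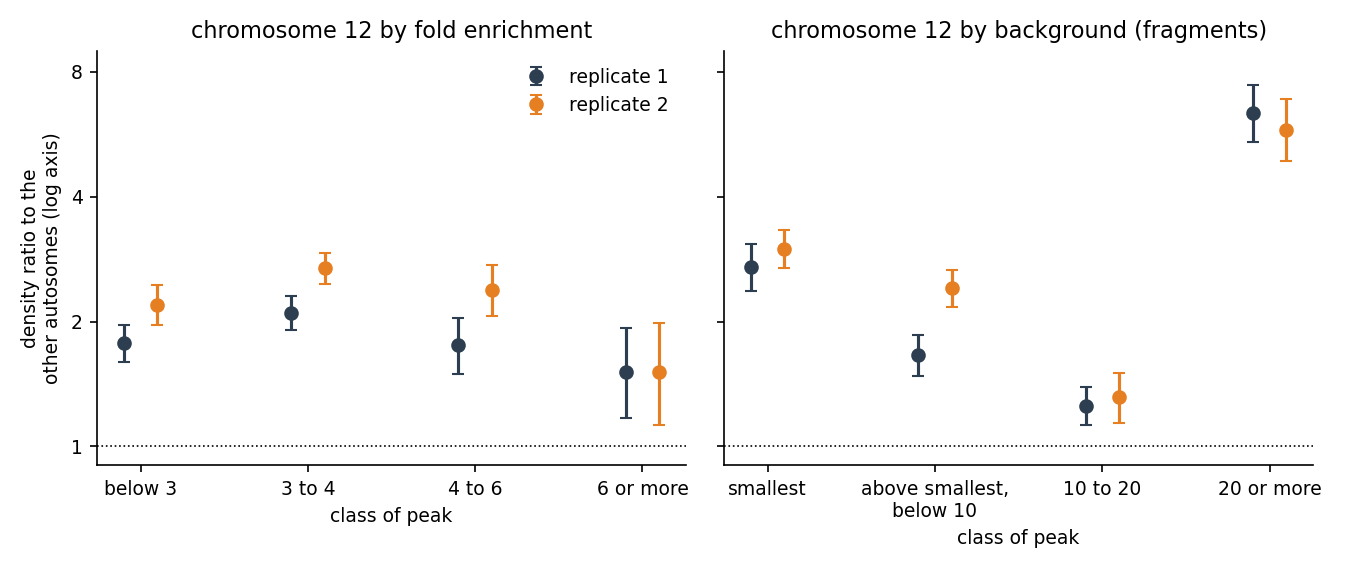
Density ratio of chromosome 12 to the other autosomes (vertical log axis, exact 95% intervals) for peaks grouped by fold enrichment (left) and by background in fragments (right), in replicate 1 (dark) and replicate 2 (orange). Ratios fall to 1.51 for peaks of fold 6 or more and stand at 6.36 and 5.81 for peaks over a background of 20 or more.

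Along the chromosome, peaks were spread over nearly every stretch. Of 134 windows of 1 Mb, 6 had no entry in any list. Of these, 3 were the adjoining windows from 35 to 38 Mb, around the centromere, and the others began at 126, 128 and 130 Mb. The longest stretch between summits, 4535229 bp in replicate 1 and 4535018 bp in replicate 2, crossed the centromere, in replicate 1 from 34175436 to 38710665. The median window held 7 peaks in each replicate and 2 IDR regions. In replicate 1 this median ranked 2 of 22. In replicate 2 no other autosome had a higher one, with medians from 1 to 7. Window counts of the replicates had a rank correlation of 0.851 over the 134 windows, which share the length of mappable sequence and may share the input background. IDR counts had 0.791 with replicate 1 and 0.657 with replicate 2. Windows of 1 chromosome are not replicates, and no p is given.

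The long arm carried more regions per Mb than the short arm. With the border at 35.8 Mb, replicate 1 had 253 peaks on the short arm (7.07 per Mb, interval 6.22 to 7.99) and 919 on the long arm (9.37 per Mb, interval 8.78 to 10.0). Replicate 2 had 256 and 964, or 7.15 and 9.83 per Mb. The long arm was denser by 1.33 times in replicate 1 (interval 1.15 to 1.53, adjusted exact p = 7.30e-05) and by 1.37 times in replicate 2 (interval 1.20 to 1.58, adjusted exact p = 1.09e-05), adjusted over the 3 lists. In the IDR list, with 87 and 332 regions, the ratio was 1.39 (interval 1.10 to 1.78, adjusted exact p = 0.00571). With peaks closer than 50 kb counted once, the ratios were 1.14 (adjusted exact p = 0.221) and 1.25 (adjusted exact p = 0.0583) in the replicates. In the IDR list it was then 1.46 (adjusted exact p = 0.0208). Without the windows from 54 to 58 Mb and from 71 to 72 Mb the IDR ratio was 1.26 (adjusted exact p = 0.0637), and the replicates gave 1.22 (adjusted exact p = 0.00889) and 1.27 (adjusted exact p = 0.00181).

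Few other differences between the arms passed a test. Of 8 comparisons of shares between arms, adjusted together, 1 passed: peaks at the smallest background made up 36.0% of long-arm and 25.4% of short-arm peaks in replicate 2 (odds ratio 1.65, interval 1.20 to 2.29, adjusted exact p = 0.0110). Replicate 1 had 22.7% and 22.5% (odds ratio 1.012, interval 0.719 to 1.44). Peaks of fold 6 or more were 5.98% of long-arm and 6.32% of short-arm peaks in replicate 1, and 4.56% and 4.69% in replicate 2. Their odds ratios had wide intervals, from 0.521 to 1.80 and from 0.495 to 2.06.

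Windows with the most entries were grouped, after their values were seen, into 2 kinds. The first kind led the replicate 2 list and held 3 to 6 IDR regions, against a median of 2 per window. In replicate 1 its windows from 92 to 93 and from 81 to 82 Mb ranked only 7 and 29. There the windows from 54 to 55 and from 56 to 57 Mb, of the second kind, shared rank 5. The window from 71 to 72 Mb had the most peaks of both replicates, 44 and 57, and 5 IDR regions. The window from 92 to 93 Mb had 23 and 42 peaks and 3 IDR regions, and that from 81 to 82 Mb had 12 and 27 peaks and 4. The window from 102 to 103 Mb had 29 and 35 peaks and 6 IDR regions, and that from 46 to 47 Mb had 35 and 28 peaks and 5. In these 5 windows the median background was at most 4.5998 fragments in replicate 1 and at most 6.89 in replicate 2. The highest of these, from 46 to 47 Mb in replicate 2, was above the chromosome's median of 6.15. The second kind led the IDR list, with 15 regions from 54 to 55 Mb, 14 from 56 to 57 Mb, 13 from 57 to 58 Mb, 12 from 12 to 13 Mb and 11 from 6 to 7 Mb. Median backgrounds there ranged from 9.33 to 21.3 fragments in replicate 1 and from 9.81 to 23.4 in replicate 2. From 6 to 7 Mb the replicates had 17 and 8 peaks, from 12 to 13 Mb 23 and 22. The window from 93 to 94 Mb, with 28 and 24 peaks and 9 IDR regions, lay between the kinds, at median backgrounds of 8.87 and 7.59.

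Over the 87 windows with at least 5 peaks in each replicate, the 2 measures moved differently with background. The number of IDR regions had a rank correlation of 0.377 with the median background, replicate 1 peaks had -0.01 and replicate 2 peaks had -0.45. These are descriptions over windows of 1 chromosome, and the median background was taken from the peaks counted.

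**Figure D3:**
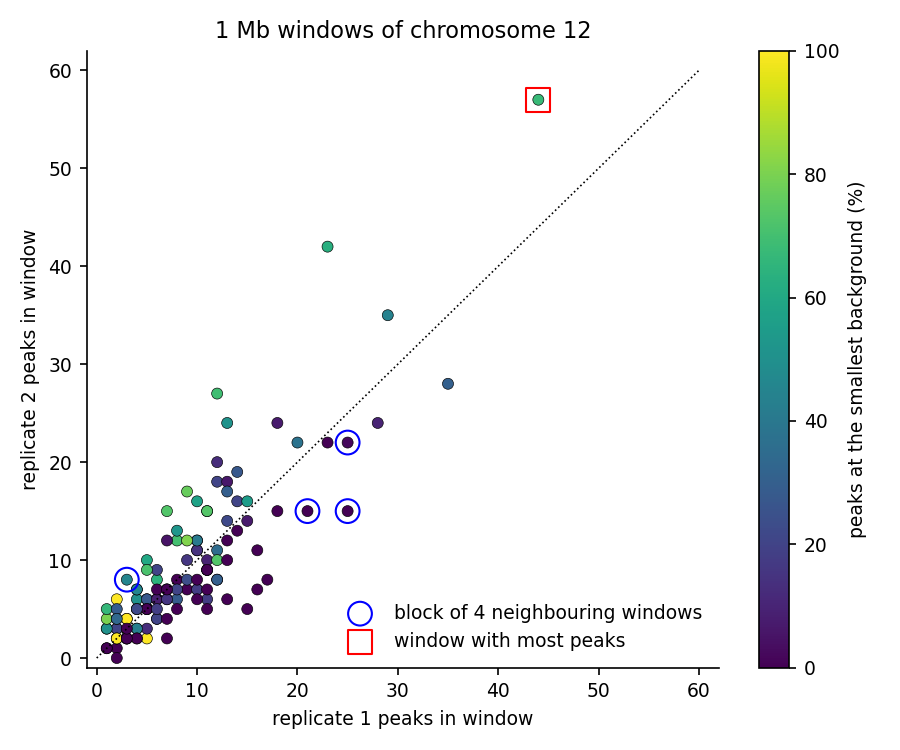
Each point is a 1 Mb window of chromosome 12, with its replicate 1 peaks on the horizontal and replicate 2 peaks on the vertical axis, coloured by the share of its peaks at the smallest background. The red square is the window with 44 and 57 peaks, and the blue circles are the 4 windows of the block with 74 and 60 peaks in all, of which 1 window holds 3 and 8.

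The block from 54 to 58 Mb held 74 replicate 1 peaks, 60 replicate 2 peaks and 43 IDR regions. This stretch is known, as background, for the HOXC cluster of body-patterning factors and for CDK2, ERBB3, STAT6 and GLI1. Its density was 18.5, 15 and 10.75 per Mb in the 3 lists, against 8.18, 8.56 and 2.88 over the chromosome without this block and the window from 71 to 72 Mb. The entries were not evenly placed. From 54 to 55 Mb there were 25 and 22 peaks, from 56 to 57 Mb 25 and 15, and from 57 to 58 Mb 21 and 15. From 55 to 56 Mb there were 3 and 8 peaks, none of them shared, and 1 IDR region.

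Peaks of the block stood on a high background. The median was 16.5 fragments in replicate 1 and 16.5 in replicate 2, against 9.14 and 6.15 on the rest of the chromosome. Of 74 replicate 1 peaks 1 was at the smallest background, and of 60 replicate 2 peaks 5 were. The summits had a median of 48 and 45 fragments, while the median fold was low, at 2.98 and 2.97. Replicate 2 peaks were shared with replicate 1 in 45 of 60 cases (75%, interval 62.1% to 85.3%), and replicate 1 peaks with replicate 2 in 45 of 74 (60.8%, interval 48.8% to 71.96%). On the rest of the chromosome 52.8% of replicate 2 peaks and 54.1% of replicate 1 peaks were shared. By background, 84.4% of all replicate 2 peaks of the chromosome at 10 to 20 fragments were shared, and 92.4% at 20 or more. In replicate 1 these shares were 57.1% and 52.7%. Of the block's 43 IDR regions 14 had no peak in either replicate list, against 102 of 371 on the rest. In the IDR list lay 50% of the replicate 1 peaks and 56.7% of the replicate 2 peaks, against 34.3% and 26.4% on the rest. A fold of 6 or more was reached by 6 (8.11%) and 3 (5%) peaks, against 6.07% and 4.71% on the rest. The maxima in the block were 9.65 and 7.31. The highest IDR signal in the block was 592, against 1391 on the chromosome.

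The window from 71 to 72 Mb had lower backgrounds, fewer fragments per summit and a smaller share of peaks in the IDR list than the block. As background, this stretch is known for PTPRR, TSPAN8 and LGR5, the last a marker of intestinal stem cells. At the smallest background stood 28 of 44 replicate 1 peaks (63.6%) and 40 of 57 replicate 2 peaks (70.2%). The median summit had 21 and 23 fragments, and the median fold was 3.84 and 3.92, above that of the block. Of the replicate 1 peaks 23 of 44 were shared (52.3%, interval 36.7% to 67.5%), and of the replicate 2 peaks 21 of 57 (36.8%, interval 24.4% to 50.7%). In the IDR list lay 7 and 4 of them. Each replicate had 1 peak of fold 6 or more, at 6.88 and 8.68. Both windows were named for their density, so these values are a description without a test.

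The summits of that window filled its first part and ended at 71610445 in replicate 1 and at 71630183 in replicate 2. They fell into runs of peaks less than 50 kb apart, which were the longest on the chromosome by number of peaks. In replicate 1 one run spanned 70947280 to 71248385, or 301 kb, with 30 peaks at a median distance of 2033 bp, of which 20 were shared. In replicate 2 it spanned 70910460 to 71276327 with 41 peaks at a median distance of 1642 bp, of which 19 were shared. No peak of fold 6 or more lay in this run in either replicate, and its maxima were 4.84 and 5.79. The second run spanned 71455419 to 71610535 with 16 peaks in replicate 1 and 71455651 to 71630262 with 23 in replicate 2. Of these 6 and 5 were shared, and none was in the IDR list. Runs of 10 or more peaks numbered 6 in replicate 1, with 8.11% of the chromosome's peaks, and 10 in replicate 2, with 13.8%. The runs were looked for after the dense window was seen.

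Close neighbours were common on the whole chromosome. A summit within 10 kb was found for 691 of 1172 replicate 1 peaks (59.0%), 738 of 1220 replicate 2 peaks (60.5%) and 48 of 419 IDR regions (11.5%). The other autosomes ranged from 47.8% to 59.4%, from 30.4% to 62.4% and from 0% to 16.96%, so chromosome 12 lay inside their range in every list. The median distance to the nearest summit was 3121 bp in replicate 1 and 2795 bp in replicate 2.

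The strongest sites did not lie in the densest windows alone. The 71 replicate 1 peaks of fold 6 or more were spread over 50 windows, with at most 3 in a window, and the 56 of replicate 2 over 46 windows, with at most 2. In replicate 1 the 10 windows with the most peaks held 23.3% of the peaks and 19.7% of those of fold 6 or more. In replicate 2 they held 25% and 14.3%. Peaks of fold 6 or more made up 6.06% of replicate 1 peaks on chromosome 12, against 7.38% of autosomal peaks (odds ratio against the other autosomes 0.795, interval 0.611 to 1.02, adjusted exact p = 0.310). In replicate 2 they made up 4.59%, against 7.01% (odds ratio 0.612, interval 0.455 to 0.810, adjusted exact p = 0.00213). The rank of this share was 20 of 22 and 21 of 22. By the same test 2 of 22 autosomes (9.09%) differed in replicate 1 and 5 of 22 (22.7%) in replicate 2. With the border at a fold of 4 the odds ratio in replicate 2 was 0.859 (adjusted exact p = 0.192). With the border at 10 it was 0.473 (adjusted exact p = 0.0360). The lower share thus passed in replicate 2 alone, at the borders of 6 and 10 but not at 4.

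Of the 10 peak pairs of highest mean fold, the first lay on the long arm from 87479294 to 87481198. It had a fold enrichment of 23.1 in replicate 1 and 17.9 in replicate 2 (20.5 ± 3.67, SD, n = 2), with 123 and 104 fragments over the smallest background. Its window had 4 and 5 peaks, so the site with the highest fold stood in a thinly marked stretch. The second lay on the short arm from 29533204 to 29535010, with 19.1 and 15.9 (17.5 ± 2.23, SD, n = 2) and 256 and 236 fragments. The third, from 119005000 to 119006861, had 16.995 and 15.3 (16.1 ± 1.22, SD, n = 2), and the fourth, from 100051937 to 100053023, had 14.6 and 13.8 (14.2 ± 0.601, SD, n = 2). The fourth had 81 and 80 fragments and ranked only 308 of 419 by IDR signal. The other 6 had mean folds from 10.99 to 12.7. They began at 127649409, 118809665, 88241010, 33638486, 122459346 and 80082852 in replicate 1. Fold was higher in replicate 1 in 9 of the 10 pairs, and at the site beginning at 80082852 it was 10.97 and 11.02.

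**Figure D4:**
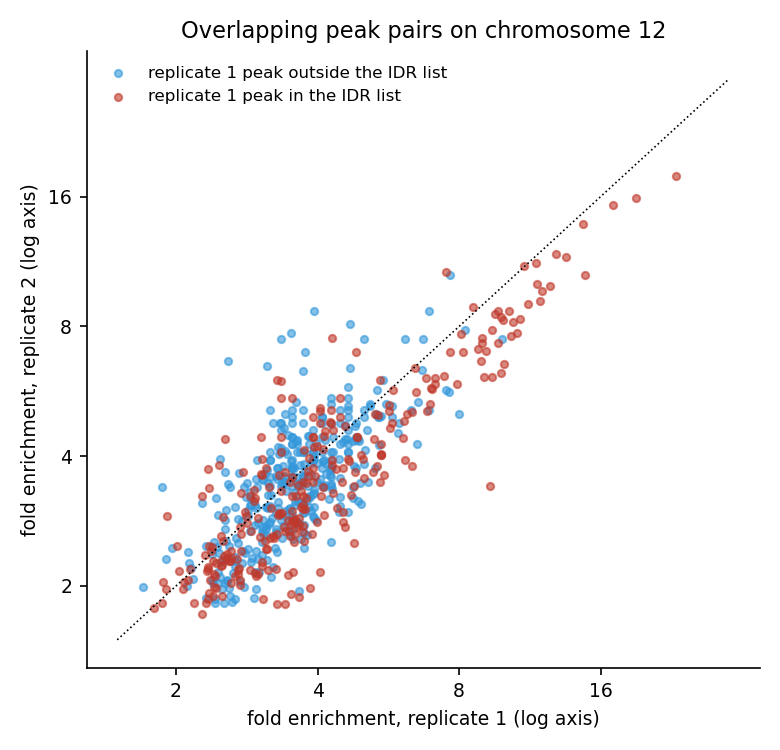
Fold enrichment in replicate 1 (horizontal log axis) against replicate 2 (vertical log axis) for the 638 overlapping pairs on chromosome 12, with the line of equal values dotted. Points in red, 277 pairs whose replicate 1 peak is in the IDR list, make up the upper end, which reaches 23.1 and 17.9, and most of them lie below the line.

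By IDR signal, a scale that the list does not name, other sites led. Of the 12 regions named for the highest signal among those with peaks in both replicates, 8 lay on the long arm. Chromosome 12 had 10 of the 100 autosomal regions of highest signal, close to its 9.75% of the list. The highest on the chromosome ran from 123236700 to 123238119 with a signal of 1391 and ranked 3 among autosomal regions. Its fold was 9.55 and 8.52 (9.04 ± 0.722, SD, n = 2), with 341 and 332 fragments over backgrounds of 34.8 and 38.1. Next came 2 regions from 49 to 50 Mb. The first of these ran from 49350664 to 49351882 with a signal of 1035. Its fold was 9.40 and 7.86 (8.63 ± 1.09, SD, n = 2), with 311 and 283 fragments over backgrounds of 32.2 and 35.1. The second ran from 49759959 to 49761342 with a signal of 966 and folds of 9.65 and 8.68 (9.17 ± 0.689, SD, n = 2). These sites joined many fragments with a high background. Regions beginning at 80084174, 127650037, 118810454 and 29533347 were also among the 10 pairs of highest fold, with signals from 822 to 875. Those beginning at 110906050, 93964364, 6832490, 2903461 and 27090879 had signals from 640.5 to 840.0 and mean folds from 6.50 to 10.8. Fold was higher in replicate 1 at 11 of the 12.

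Some pairs set peaks of unlike size side by side. Each replicate 1 peak was paired with the overlapping replicate 2 peak of nearest summit, so a replicate 2 peak could enter more than 1 pair. Of the shared peaks, 63 of 638 in replicate 1 and 58 of 648 in replicate 2 overlapped more than 1 peak of the other list. The pair of widest ratio in fold was of this kind: the replicate 1 peak from 133778865 to 133781784, of fold 9.30, was paired with a replicate 2 peak of 326 bp and fold 3.41. It also overlapped a replicate 2 peak from 133778839 to 133781153 with a fold of 10.2, so the replicates did not disagree there by the ratio of that pair. The pair of next widest ratio had folds of 2.58 in replicate 1 and 6.64 in replicate 2. Its replicate 2 peak also overlapped a replicate 1 peak of fold 8.91, from 125477294 to 125478420. These sites were looked at after their values were seen.

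Peaks on chromosome 12 were mostly narrow. The median width was 308 bp in replicate 1 (from 175 to 3733 bp) and 281 bp in replicate 2 (from 175 to 4539 bp), against 317 and 294 bp on the other autosomes. At least 1000 bp wide were 116 of 1172 replicate 1 peaks (9.90%), against 9.51% of autosomal peaks, and 77 of 1220 replicate 2 peaks (6.31%), against 7.76%. For replicate 1 the odds ratio against the other autosomes was 1.05 (interval 0.851 to 1.28, adjusted exact p = 0.930). For replicate 2 it was 0.782 (interval 0.606 to 0.998, adjusted exact p = 0.210). No autosome passed this test after adjustment (0% of 22 in each replicate), and 4 and 5 had an unadjusted exact p under 0.05. Width went with fold: of the peaks of fold 6 or more, 59 of 71 and 43 of 56 were at least 1000 bp wide, and of those below 3, 16 of 428 and 3 of 348.

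The 5 widest peaks of each replicate were shared and in the IDR list. The widest was at 127647965 to 127652503 in replicate 2, with 4539 bp and a fold of 10.5. The widest of replicate 1, from 80082852 to 80086584, had 3733 bp and a fold of 10.97. Both replicates also had among their 5 widest the sites that begin at 122459346 and 123236490 in replicate 1. In 1 place they differed: replicate 1 had the peak at 133778865 to 133781784, and replicate 2 had 88240847 to 88243467, each over the smallest background.

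IDR regions were wider, with a median of 1975 bp against 1751 bp on the other autosomes. The medians of other autosomes ranged from 1632 to 1956 bp, so chromosome 12 had the highest. At least 2000 bp wide were 200 of 419 (47.7%), against 42.0% of autosomal regions (odds ratio against the others 1.29, interval 1.05 to 1.59, adjusted exact p = 0.165). No autosome passed (0% of 22), with 2 at an unadjusted exact p under 0.05. This width was chosen after the medians were seen.

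On chromosome 12 the share of overlapping peaks was close in both directions, while over all autosomes it was not. Of replicate 1 peaks on chromosome 12, 638 of 1172 (54.4%, interval 51.5% to 57.3%) shared at least 1 bp with a replicate 2 peak, against 50.9% of autosomal peaks. The odds ratio against the other autosomes was 1.17 (interval 1.04 to 1.32, adjusted exact p = 0.237). In this direction 0 of 22 autosomes (0%) passed after adjustment, and 3 had an unadjusted exact p under 0.05. Of replicate 2 peaks, 648 of 1220 (53.1%, interval 50.3% to 55.95%) shared at least 1 bp with a replicate 1 peak, against 64.1% of autosomal peaks. Here the odds ratio was 0.600 (interval 0.532 to 0.678, adjusted exact p = 7.97e-16) and the rank 21 of 22, with 8 of 22 autosomes (36.4%) past the threshold. Chromosomes 7 and 12 were the lower ones of these 8. The replicate 2 share depends on the peak numbers, with 1.04 replicate 2 peaks per replicate 1 peak here against 0.814 elsewhere. It is therefore not a result separate from that excess of replicate 2 peaks.

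The low share in replicate 2 came with peaks of modest fold and low background. From a fold of 3 to 4, 34.1% of replicate 2 peaks on chromosome 12 were shared, against 49.0% on the other autosomes (adjusted exact p = 3.80e-11 over 8 tests). Below 3 the shares were 70.4% and 75.3% (adjusted exact p = 0.0818), and from 4 to 6 they were 66.5% and 74.1% (adjusted exact p = 0.0505). At 6 or more, 54 of 56 were shared (96.4%), against 99.6% on the other autosomes (adjusted exact p = 0.0806). The 2 unshared peaks of chromosome 12, at 43864313 to 43864894 and 102896770 to 102897291, had folds of 6.21 and 6.22. In replicate 1 all 71 peaks of that class were shared, against 99.8% on the other autosomes. Below a fold of 3 chromosome 12 had the higher share in replicate 1, 38.3% against 27.99% (adjusted exact p = 4.15e-05). By background, the replicate 2 shares were 28.4% against 39.4% at the smallest value and 44.3% against 58.3% from there to 10 fragments (adjusted exact p = 6.68e-05 and 5.71e-07). From 10 to 20 they were 84.4% against 87.9% (adjusted exact p = 0.162), and at 20 or more 92.4% against 96.2% (adjusted exact p = 0.0811).

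**Figure D5:**
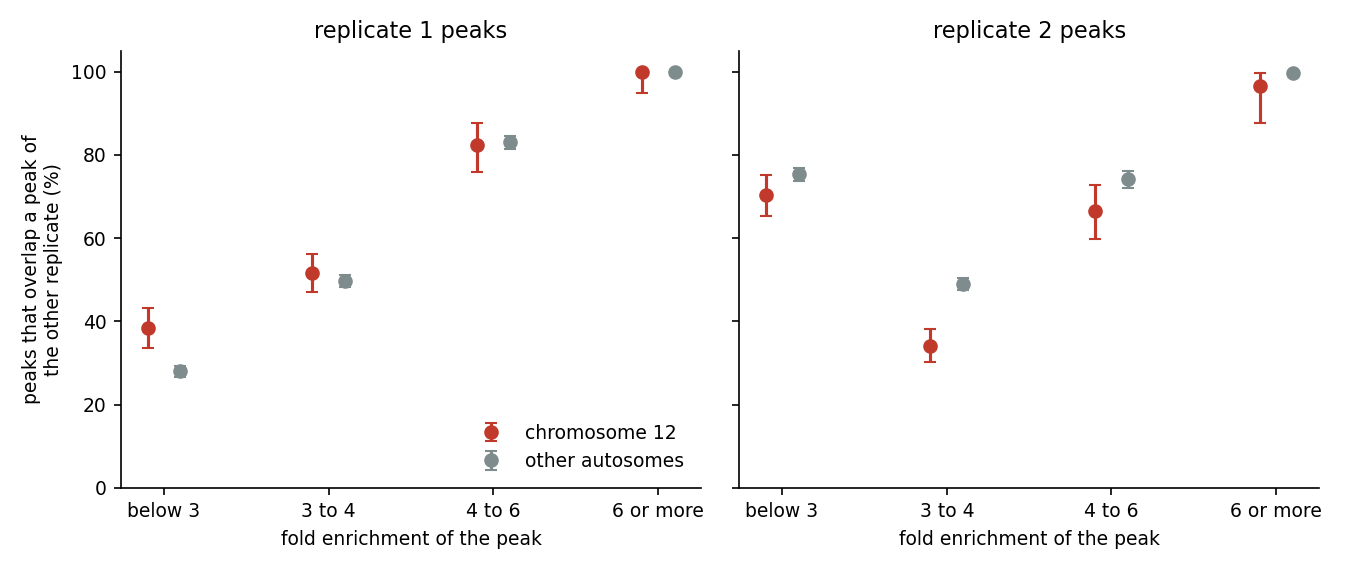
Share of peaks that overlap a peak of the other replicate (vertical axis, %) by fold enrichment, on chromosome 12 (red) and the other autosomes (grey), with exact 95% intervals. The widest gap is in replicate 2 from a fold of 3 to 4, at 34.1% against 49.0%, and in replicate 1 below 3 the order is turned, at 38.3% against 27.99%.

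Peaks without a partner were weak in different ways in the replicates. The 534 such peaks of replicate 1 had a median of 28 fragments over 8.11 and a highest fold of 4.84. The 572 of replicate 2 had a median of 21 fragments over 4.87, with 295 of them (51.6%) at the smallest background, and a highest fold of 6.22. Shared peaks had medians of 39 and 40 fragments and were wider, at 460.5 and 377 bp against 236 and 226 bp.

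Where peaks were shared, their heights went together. Over the 638 pairs, fold had a rank correlation of 0.763 and fragments of 0.897, and the other autosomes ranged from 0.637 to 0.817 and from 0.774 to 0.902. Pairs may share the input background and come from the same 2 libraries, so no p is given. Summits lay a median of 84 bp apart, and 360 pairs (56.4%) had them within 100 bp. Fold was higher in replicate 1 in 419 of 638 pairs (65.7%), with a median log2 ratio of replicate 2 over replicate 1 of -0.14. In pairs with summits within 100 bp and a mean fold of 10 or more it was higher in 12 of 13, at a median log2 ratio of -0.26.

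The IDR list met the replicate lists less often on chromosome 12 than elsewhere. Of its 419 regions, 232 (55.4%, interval 50.5% to 60.2%) had a peak in both replicates, the lowest share of the 22 autosomes and below the 63.1% of all autosomal regions. The odds ratio against the other autosomes was 0.7002 (interval 0.568 to 0.863, adjusted exact p = 0.0141), and 4 of 22 autosomes (18.2%) differed. A further 57 had a peak in replicate 1 alone and 12 in replicate 2 alone. The other 118 regions (28.2%, interval 23.9% to 32.7%) had no peak in either list, against 18.4% of autosomal regions. This share was the highest of the 22 (odds ratio 1.87, interval 1.47 to 2.36, adjusted exact p = 5.70e-06), and 2 of 22 autosomes (9.09%), 7 and 12, differed by it. The next highest autosome had 25.1%. Regions without a peak had a median signal of 164 and regions with a peak in both had 218. Of the 104 regions of highest signal 90 had a peak in both, and of the 104 of lowest signal 31 had.

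Seen from the peaks, replicate 2 contributed less. In an IDR region lay 329 of 1220 replicate 2 peaks (27.0%), against 31.9% of autosomal peaks (odds ratio 0.769, interval 0.672 to 0.880, adjusted exact p = 0.000531). This share was the lowest of the 22, just below the next lowest at 27.5%. Of replicate 1 peaks 406 of 1172 (34.6%) lay in an IDR region, against 33.4% (odds ratio 1.06, interval 0.932 to 1.20, adjusted exact p = 0.502). The test was passed by 6 of 22 autosomes (27.3%) in replicate 2 and 3 of 22 (13.6%) in replicate 1. On chromosome 12 the share in the IDR list was higher in each higher background class, from 12.4% at the smallest value to 64.5% at 20 or more in replicate 1 and from 8.01% to 68.6% in replicate 2. All 19 and all 12 peaks of fold 10 or more were in the list. These shares by class were not set beside the other autosomes, so they are not shown to be particular to chromosome 12.

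Chromosome 12 was set beside 3 other densely marked stretches: chromosome 7, chromosome 17 and the long arm of chromosome 1. In 24 comparisons of shares, adjusted together, none of the 8 with chromosome 7 passed, with adjusted exact p from 0.188 to 0.975. Backgrounds of 20 or more were not among these comparisons. In replicate 2 the share of overlapping peaks was 53.1% on chromosome 12 and 49.6% on chromosome 7 (odds ratio 1.15, interval 0.982 to 1.35). These intervals leave room for differences, and the chromosomes were not shown to be alike. Against chromosome 17 the contrast was wide. Peaks at the smallest background were 22.7% against 2.96% in replicate 1 (odds ratio 9.61, interval 5.89 to 16.7, adjusted exact p = 1.20e-31) and 33.8% against 6.11% in replicate 2. Peaks of fold 6 or more were 6.06% against 10.7% in replicate 1 (adjusted exact p = 0.00268) and 4.59% against 11.96% in replicate 2 (adjusted exact p = 7.23e-06). From the long arm of chromosome 1, chromosome 12 differed in the share at the smallest background, with 17.5% there in replicate 1 (adjusted exact p = 0.00953) and 26.5% in replicate 2 (adjusted exact p = 0.00121).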

How the data were processed

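Tools in the submitters' processing notes are MACS2 2.1.1, Picard and BWA 0.7.13-r1126, with the build hg19 and no roles. Per the file headers, MACS2 made the peaks of the 2 replicate lists, each of which sets 1 ChIP library against input per the labels. For each peak the authors deposited a score, a fold enrichment (a ratio of pileup to background), and −log10 values of p and q. The third list is, per the file headers, the optimal IDR set, with a deposited score and a signal value of unnamed scale. Read totals and calling settings are not stated in the sources used, and the number of fragments at a summit limits precision.

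Fragments and background were recovered by setting fold to (fragments + 1)/(background + 1) and p to the upper Poisson tail, within 0.001 on the −log10 p scale. Overlap meant at least 1 bp, windows were assigned by summit, and chromosome lengths and the arm border are those of hg19. Densities were compared with the exact conditional binomial test and shares with Fisher's exact test, two-sided, with Clopper-Pearson and exact Poisson intervals at 95% that cover counting error only. The steps were tested on simulated data. Tools were Python 3.11.15, NumPy 2.4.6, SciPy 1.17.1, pandas 2.3.3 and matplotlib 3.10.9. Sites were named by rule: the 12 IDR regions of highest signal with peaks in both replicates, the 10 pairs of highest mean fold, the 5 fullest windows of each list with ties, those from 54 to 58 and 71 to 72 Mb, and the 5 widest peaks of each replicate. The members, rules and comparisons were chosen with earlier results of these data known. The 4 libraries gave 3 lists, and both input libraries enter only through the background.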

Additional observations from a re-analysis of the deposited data

How the results depend on the processing

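Over 47 alternative values of the densities, shares, arm ratios, window counts and pair measures, 41 kept their direction and their side of the threshold or moved less than their spread. Counting peaks closer than 50 kb once gave arm ratios of 1.14 and 1.25 in replicates 1 and 2, no longer past the threshold, and leaving out the windows from 54 to 58 and 71 to 72 Mb gave 1.26 in the IDR list. With a fold of 4 or more the odds ratio of strong peaks in replicate 2 was 0.859 (adjusted exact p = 0.192), against 0.612 at 6 or more. The odds ratio of wide peaks in replicate 1 turned to 0.892 at 2000 bp or more, and neither value passed the test. With summits within 100 bp the rank correlation of fold was 0.839, against 0.763. No spread was set for this measure, so any change in it counted as a move. Window counts were judged by size and not by place. The fullest IDR window held 15 regions from 54 Mb, and with windows shifted by 0.5 Mb it held 15 from 57.5 Mb. The causes were not tested. The density ratio, 2.13 as a mean over the replicate lists, was 1.87 to 2.39 from 1 list alone. With n = 2 each value lies within 1 SD of the mean by arithmetic. These values, counted among the 41, could therefore not have moved. No paired analysis was possible because the lists hold peaks of ChIP over input and no value of an input sample by itself, so ChIP and input with the same number could not be set side by side. Promoters, genes and recognition sequences were not run here, since the reference tables are of another build. Summits with a median of 34 and 26 fragments limit the precision of single fold values.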
